A study of Desmophyllum pertusum with 36 samples.

Results

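In polyps of Lophelia pertusa, a cold-water reef coral now called Desmophyllum pertusum, 62 of 75743 transcripts were counted in a single colony at pH 7.6. They are the transcripts with 50 or more counts in all 3 libraries of 1 colony and 2 or fewer counts in each of the 6 libraries of the other colonies. Of the 62, 18 belonged to colony 1, 24 to colony 3 and 20 to colony 4. They were chosen by their counts in the 9 libraries at pH 7.6, so their pattern there is a description with no test. The 9 libraries at pH 7.9 took no part in the choice and are where the transcripts were read.

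The study kept fragments of genetically distinct colonies (1, 3 and 4) in seawater of pH 7.6, the lowered level, or of pH 7.9, the level it was compared with, for 4 months. Polyp RNA was taken at weeks 2, 4.5 and 8.5, giving 1 library for each colony, pH and week. A colony is thus represented at each pH by 3 libraries of different weeks, and no label gives separate animals or tanks behind them. What a p-value measures here is therefore only the spread among the libraries at hand, which may be technical. The file numbers the transcripts and pairs them with no gene names, so no gene function is given and no tissue marker could be checked.

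A coral colony grows by budding of polyps from a founder, so its polyps are expected to share 1 genotype. A transcript can be counted in 1 genotype only because a gene or allele is missing from the others, because it is silent there, or because the sequence of the others differs enough for reads not to match. Counts alone do not separate these. Lophelia builds its skeleton without algal symbionts, in deep and cold water. In bulk polyps, fewer cells of a type and less RNA per cell cannot be told apart.

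Libraries held 18042191 to 25651213 counts (18 libraries). Levels are in CPM, the counts scaled to a common library total, with library sizes scaled by the trimmed mean of M values, and a count of 0 allows up to 0.119 to 0.167 CPM (3 counts, counting error only). At pH 7.9, 5 libraries carried transcripts that go against their labels: those labelled colony 1 at weeks 4.5 and 8.5, and those labelled colony 3 at weeks 2, 4.5 and 8.5. Results that rest on them are given with and without them where the design allows it.

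**Figure D1:**
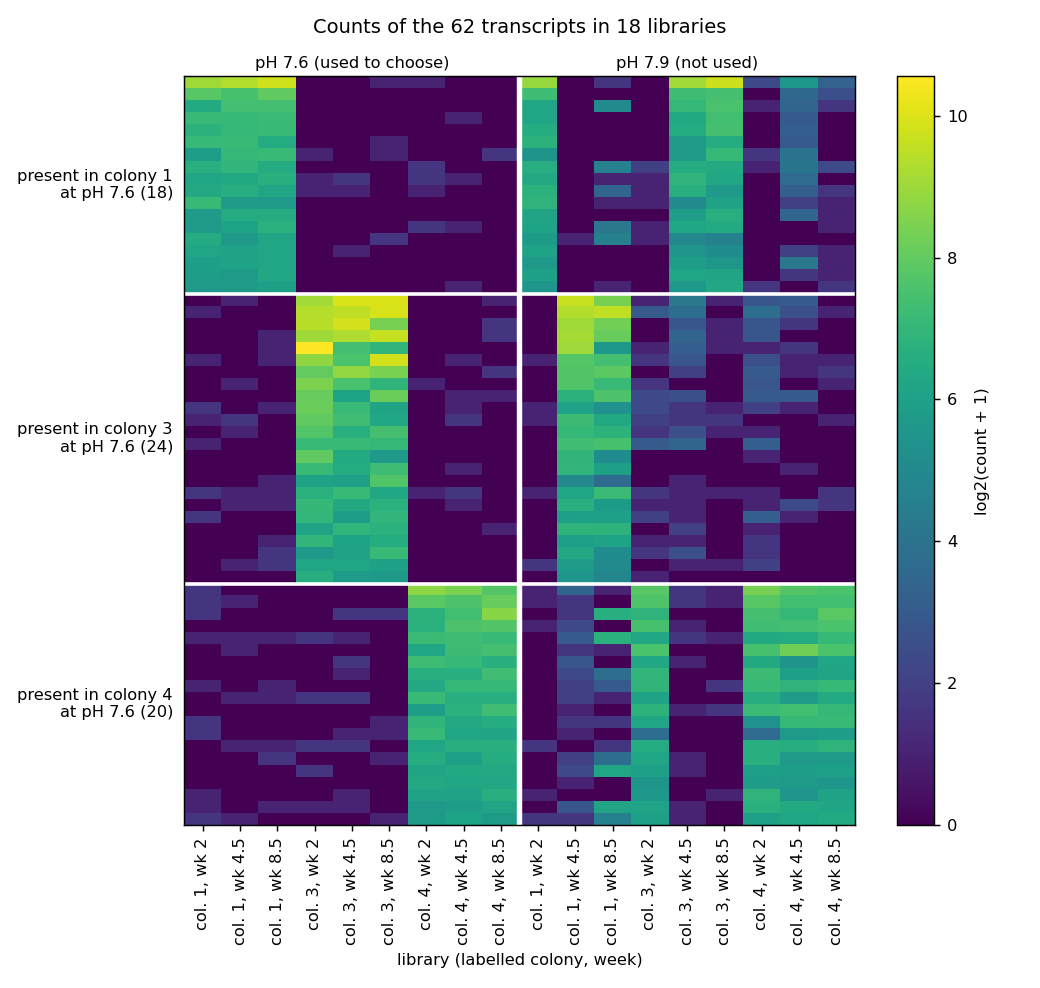
Counts of the 62 transcripts (rows, log2 of count + 1) in the 18 libraries (columns), with the 9 libraries at pH 7.6 on the left and the 9 at pH 7.9 on the right. The left blocks follow from the choice; on the right, the 18 transcripts of colony 1 are bright in 2 libraries labelled colony 3, and the 24 of colony 3 are bright in 2 libraries labelled colony 1.

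At pH 7.6 the summed level of the 18 colony 1 transcripts was 106 ± 9.38 CPM in colony 1, 0.179 ± 0.0248 CPM in colony 3 and 0.194 ± 0.132 CPM in colony 4 (SD, n = 3 each). The 24 colony 3 transcripts summed to 301 ± 62.8 CPM in colony 3, 0.45 ± 0.0985 CPM in colony 1 and 0.27 ± 0.161 CPM in colony 4. The 20 colony 4 transcripts summed to 104 ± 6.18 CPM in colony 4, 0.447 ± 0.292 CPM in colony 1 and 0.432 ± 0.18 CPM in colony 3. The colony 3 list was the most abundant by this sum, which is over more transcripts.

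The transcripts were of modest abundance. Mean levels in the colony that held them ran from 2.48 to 30.6 CPM for colony 1, from 3.12 to 38.8 CPM for colony 3 and from 2.39 to 13.7 CPM for colony 4. Their medians were 3.86, 6.74 and 4.46 CPM, where all transcripts with 50 or more counts in the same 3 libraries had medians of 10.8, 12.4 and 10.7 CPM. At pH 7.6 a list made up 0.00909 to 0.0309% of all counts in the libraries that held it.

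The choice has edges. The lowest count in the own colony was 50 to 54 for 5 transcripts of colony 1, 3 of colony 3 and 2 of colony 4, while 2, 2 and 1 others missed it with a lowest count of 45 to 49. The highest count in another colony was at the limit of 2 for 5, 9 and 12 members, and 3, 6 and 10 transcripts missed it with a highest count of 3. Transcripts at 0 in all 6 libraries of the other colonies numbered 7, 2 and 3. The numbers of the 62 ran from 1077 to 83074, and 1 pair, both of colony 3, lay within 2 numbers of each other.

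The first question was whether the lists stayed with their colony at pH 7.9. Only colony 4 kept its list in all 3 of its libraries: 18, 18 and 19 of its 20 transcripts had 50 or more counts at weeks 2, 4.5 and 8.5, and none fell to 2 or fewer. Colony 1 held its list at week 2, with 16 of 18 at 50 or more counts, but not at week 4.5, where all 18 had 2 or fewer, or at week 8.5, where 13 had. Colony 3 had no member of its own list at 50 or more counts in any of its libraries at pH 7.9. By these labels, 15 of the 62 transcripts had 50 or more counts in all 3 own libraries at pH 7.9, all 15 of colony 4, and 0 of the 75743 transcripts met the same rule there for any colony.

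**Figure D2:**
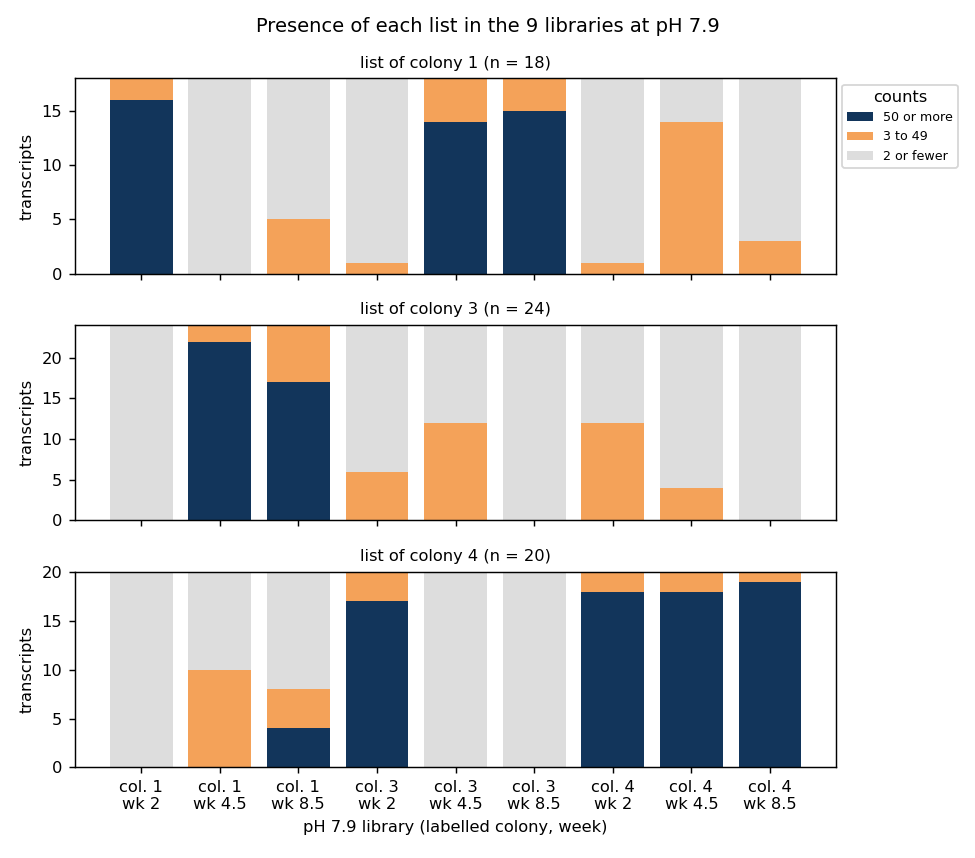
Number of transcripts of each list (y axis) at 50 or more, 3 to 49 and 2 or fewer counts in the 9 libraries at pH 7.9 (x axis, labelled colony and week). The colony 1 list is held by 3 libraries (14 to 16 of 18 at 50 or more), of which 2 are labelled colony 3; the colony 4 list is held by 4 libraries, of which 1 is labelled colony 3.

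Counts of 2 or fewer under the own label were far more frequent in the lists of colonies 1 and 3 than in wider sets. Each wider set holds all transcripts with 50 or more counts in every library of the colony at pH 7.6, the list included. The difference was seen in the libraries labelled colony 1 at weeks 4.5 and 8.5 and in all those labelled colony 3. Whether these libraries hold RNA of another colony than their label says was not tested, so low counts in them are not shown to be losses by a colony. All 18 of the colony 1 list, 100%, had 2 or fewer counts in the library labelled colony 1 at pH 7.9 and week 4.5, and 72.2% had at week 8.5. Of the 28352 transcripts with 50 or more counts in all 3 colony 1 libraries at pH 7.6, 0.296% and 0.155% did so. In colony 3, 75%, 50% and 100% of the 24 in its list had 2 or fewer at weeks 2, 4.5 and 8.5, against 0.4%, 0.269% and 0.519% of 25996 such transcripts. In colony 4, 0 of the 20 in its list did so in any library, and 0 to 1 of 28920. The lists were chosen for absence in the other colonies, which these wider sets were not.

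The colony 1 transcripts were found at pH 7.9 in libraries of another label. In the library labelled colony 1 at week 2 their sum was 100.9 CPM, or 94.9% of the mean in colony 1 at pH 7.6. At weeks 4.5 and 8.5, 14 and 15 of the 18 had 50 or more counts in the libraries labelled colony 3, and none had fewer than 24. Their sum there was 102 and 126 CPM, which is 95.9% and 118% of that mean.

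Transcript_1754, the most abundant of the colony 1 list, had 533, 646 and 881 counts in colony 1 at pH 7.6 (weeks 2, 4.5 and 8.5) and 0 or 1 in the 6 other libraries at that pH. At pH 7.9 it had 490, 0 and 2 counts in the libraries labelled colony 1, 0, 548 and 864 in those labelled colony 3, and 4, 49 and 9 in those labelled colony 4. The high libraries at pH 7.9 were thus week 2 of label 1 and weeks 4.5 and 8.5 of label 3, and the labelled colonies overlapped. Transcript_46714, the next in abundance, had 226, 179 and 250 counts in colony 1 at pH 7.6. At pH 7.9 it had 153, 0 and 0 counts under label 1, 0, 153 and 175 under label 3, and 0, 11 and 5 under label 4, the same order of high and low libraries.

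In the comparison of colony 1 with the mean of colonies 3 and 4 at pH 7.9, edgeR's quasi-likelihood test called 0 of the 18 higher at an adjusted p below 0.05, where 0% of the 52289 transcripts tested were called. At an unadjusted p below 0.05, 1 of 18 was higher, against 12.6% of all, and all 3 libraries of colony 1 lay above the 6 others for 0 of 18, against 6.43%. DESeq2 gave a p-value for 17 of the 18 and called 0 of them, where it called 4.12% of the 52046 transcripts with a p-value higher. Limma-voom called 0 of the 18 and 0% of all. The log2 fold change of Transcript_1754 was 0.89 ± 1.67 (SE, edgeR adjusted p = 0.794) and that of Transcript_46714 was 1.21 ± 1.61 (SE, edgeR adjusted p = 0.699), both within their error. The direction was not stable: it turned to -0.43 for Transcript_1754 with week as a replicate block, to -2.06 and -1.69 for the pair with limma-voom, and to -6.6 and -7.66 without the week 2 library labelled colony 1. Against colony 3 alone, a comparison that was not planned, 2 of 18 estimates were higher in colony 1 and 16 lower. EdgeR called 0 of the 18 there, and 0% of the 52289 transcripts. The 18 were high together in the same 2 libraries labelled colony 3, and the split over all transcripts was not computed. The split of the 18 is thus a description, with no weight as a test.

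Without the 5 libraries named above, 1 library of colony 1 and 3 of colony 4 remain, and the lone library is assumed to vary like the others. With all libraries, DESeq2 called 1 of 17 higher in colony 1 than in colony 4, and 4.67% of the 52046 transcripts with a p-value. EdgeR called 0 of the 18 higher, and 0% of 52289 transcripts. At an unadjusted p below 0.05 edgeR had 3 of 18 higher, against 12.8%. Of the 18, 16 were called so without the 5, where 5.34% of 54796 transcripts were. The 5 libraries were left out for what they hold of these lists, and the library that remains of colony 1 is the 1 that holds this list, so the choice fixed the count and it is a description, with no weight as a test.

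The colony 3 transcripts were found at pH 7.9 in the libraries labelled colony 1 at weeks 4.5 and 8.5. There, 22 and 17 of the 24 had 50 or more counts, and none had fewer than 12. The sums were 250 and 147 CPM, or 83.1% and 48.8% of the mean in colony 3 at pH 7.6. In the libraries labelled colony 3 the sums were 2.16, 5.61 and 0.502 CPM at weeks 2, 4.5 and 8.5, at most 1.86% of that mean, and in the library labelled colony 1 at week 2 the sum was 0.326 CPM.

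Transcript_64870, the most abundant of the colony 3 list, had 550, 1026 and 1028 counts in colony 3 at pH 7.6. At pH 7.9 it had 1, 17 and 1 counts in the libraries labelled colony 3, 0, 812 and 335 in those labelled colony 1, and 6, 7 and 0 in those labelled colony 4. Transcript_57389 had 668, 743 and 958 counts in colony 3 at pH 7.6. At pH 7.9 it had 7, 13 and 0 counts under label 3, 0, 652 and 747 under label 1, and 13, 5 and 1 under label 4. For both, the high libraries at pH 7.9 were those of label 1 at weeks 4.5 and 8.5, far above every other library at that pH.

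Only 4 of the 24 passed edgeR's filter on low counts at pH 7.9, which asks for counts in 3 libraries where this list was high in 2. They passed largely through the libraries labelled colony 1, where they were high. Whether they were called higher in colony 3 is therefore a description, with no weight as a test. Of these 4, 0 were called higher in colony 3 than in the mean of colonies 1 and 4 at an adjusted p below 0.05 and 0 at an unadjusted p below 0.05, against 0% and 5.33% of the transcripts tested. All 3 libraries of colony 3 lay above the 6 others for 0 of the 4, against 1.69%. DESeq2 called 0 of the 4, where it called 0.0231% of 52046 transcripts, and limma-voom called 0 of the 4 and 0% of all. The log2 fold changes were -2.49 ± 1.65 for Transcript_64870 (SE, edgeR adjusted p = 0.643) and -2.82 ± 1.56 for Transcript_57389 (SE, edgeR adjusted p = 0.604). Without the week 4.5 library labelled colony 3, the estimate for Transcript_64870 was -5.07. With no filter all 24 were fitted, and in that fit all 24 were lower in colony 3 than in colony 1 at an unadjusted p below 0.05, against 6.78% of 74393 transcripts, with 0 called after adjustment. This comparison with colony 1 alone was not planned, and the 24 were high together in the same 2 libraries. The count is thus a description, with no weight as a test.

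Without the library labelled colony 1 at week 2, all 24 passed the filter and edgeR called 20 lower in colony 3 than in colony 1, against 0.828% of 54364 transcripts. That library is the only 1 labelled colony 1 that lacks the list at pH 7.9, and it was singled out after its values were seen. The 24 passed through the libraries where they were high, so this count is a description, with no weight as a test. The comparison that leaves out all 5 libraries holds none of colony 3 and gives no value for this list.

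The colony 4 transcripts were found in the libraries of their own label at both pH levels, and at pH 7.9 also in the week 2 library labelled colony 3. Their sum was 114, 100.2 and 109 CPM in the libraries of colony 4 at pH 7.9 (weeks 2, 4.5 and 8.5), against 102 CPM in the week 2 library labelled colony 3, or 97.9% of the mean in colony 4 at pH 7.6. In that library, 17 of the 20 had 50 or more counts and none had fewer than 13. The libraries labelled colony 3 at weeks 4.5 and 8.5 summed to 0.722 and 0.401 CPM.

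Transcript_3360, the most abundant of the colony 4 list, had 436, 349 and 211 counts in colony 4 at pH 7.6 and 338, 210 and 191 at pH 7.9. In the other libraries at pH 7.9 it had 226, 2 and 1 counts under label 3 and 1, 10 and 1 under label 1. Transcript_39136 had 233, 193 and 274 counts in colony 4 at pH 7.6 and 222, 165 and 164 at pH 7.9. In the other libraries at pH 7.9 it had 199, 2 and 1 counts under label 3 and 1, 2 and 0 under label 1. For both, a single library of another label stood at the level of colony 4, that of label 3 at week 2, and its count lay within the range of colony 4 at pH 7.9.

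Against the mean of colonies 1 and 3 at pH 7.9, edgeR called 0 of the 20 higher in colony 4 at an adjusted p below 0.05, where 0% of 52289 transcripts were called. At an unadjusted p below 0.05, 14 of 20 were higher, against 6.84% of all, and all 20 estimates were positive. DESeq2 gave a p-value for 8 of the 20 only, so the others could not be called. It called 1 of the 8, and 1.12% of the 52046 transcripts with a p-value. Limma-voom called 0 of the 20 and 0% of all. The log2 fold change was 3.72 ± 1.19 for Transcript_3360 (SE, edgeR adjusted p = 0.228) and 4.32 ± 1.24 for Transcript_39136 (SE, edgeR adjusted p = 0.222). All 3 libraries of colony 4 lay above the 6 others for 4 of the 20, against 2.8% of the transcripts tested. The 20 passed the filter on low counts largely through the libraries of colony 4, where they were high. They were also high together in the same libraries. These counts of members are thus descriptions, with no weight as a test.

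A single library decided this count. Without the week 2 library labelled colony 3, 18 of the 20 were called higher in colony 4, against 5.79% of 54521 transcripts, and the log2 fold changes were 6.49 for Transcript_3360 and 7.001 for Transcript_39136. Without all 5 libraries, 20 of 20 were called higher in colony 4 than in colony 1, with 3 libraries against 1, against 5.09% of 54796. The libraries were left out for what they hold of these lists, so both counts are descriptions, with no weight as a test.

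**Figure D3:**
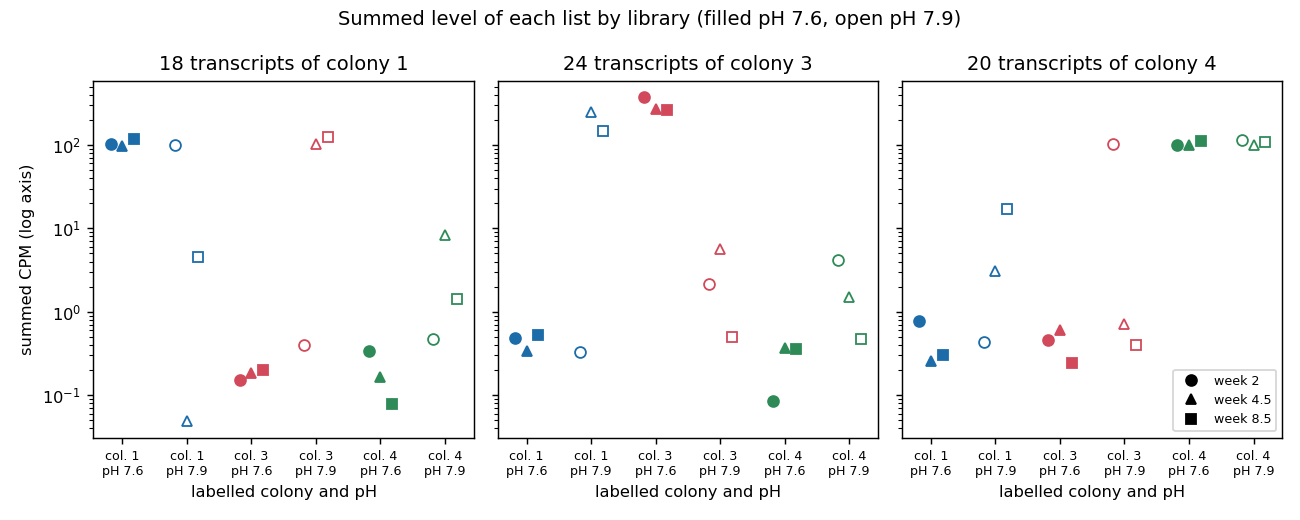
Summed CPM (log axis) of the transcripts of each list, by labelled colony and pH (x axis), 1 point per library, with the week by shape, filled at pH 7.6 and open at pH 7.9. The open points split within labels 1 and 3: the colony 1 list stands at 100.9 CPM at week 2 under label 1, and at 102 and 126 CPM at weeks 4.5 and 8.5 under label 3.

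The order of the transcripts within a list was also compared between libraries, as Pearson's r of log2(CPM + 0.5). The points are the transcripts of 1 list, which share library, depth and the choice, so r is a description. Over the 20 colony 4 transcripts, the week 2, pH 7.9 library labelled colony 3 had r = 0.909 with the week 2, pH 7.9 library of colony 4. It had 0.769 and 0.757 with weeks 4.5 and 8.5 of colony 4 at pH 7.9, and 0.331, 0.772 and 0.748 with weeks 2, 4.5 and 8.5 at pH 7.6. The likest library was thus that of the same week and pH. Among themselves, the colony 4 libraries of pH 7.6 had 0.458 to 0.791, and weeks 4.5 and 8.5 at pH 7.9 had 0.886. The colony 4 library of week 2 at pH 7.6 had 0.287, 0.233 and 0.359 with colony 4 at pH 7.9 (weeks 2, 4.5 and 8.5). At week 2, 1 of the 20, singled out after its values were seen, had 141 counts in the colony 4 library at pH 7.6 against 12 in that at pH 7.9, and it had 13 in the library labelled colony 3 at pH 7.9.

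Over the 18 colony 1 transcripts, the week 4.5 and 8.5 libraries labelled colony 3 had r of 0.67 to 0.904 with the colony 1 libraries of pH 7.6, where those had 0.768 to 0.93 among themselves. Over the 24 colony 3 transcripts, the week 4.5 and 8.5 libraries labelled colony 1 had r of 0.572 to 0.883 with the colony 3 libraries of pH 7.6, which had 0.543 to 0.732 among themselves. In both lists the ranges of r overlapped.

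The week 8.5, pH 7.9 library labelled colony 1 held members of all lists. Besides all 24 colony 3 transcripts, it had 8 of the 20 colony 4 transcripts above 2 counts and 5 of the 18 colony 1 transcripts. Of the 8, 4 had 50 or more counts, which no transcript of the colony 4 list had in any other library labelled colony 1. Transcript_78357 counted 145, 153 and 139 in colony 4 at pH 7.6 and 85, 88 and 132 there at pH 7.9, and 107 in the library labelled colony 1. Transcript_8378 counted 110, 163 and 407 in colony 4 at pH 7.6 and 172, 128 and 228 there at pH 7.9, and 101 in the library labelled colony 1. In that library the count of Transcript_78357 lay within the range of colony 4 and that of Transcript_8378 just below it.

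In that library the transcripts of a list did not share 1 level. The 8 colony 4 transcripts stood at 6.3 to 120% of their mean in colony 4 at pH 7.6, while the remaining 12 had 0 to 2 counts. The 5 colony 1 transcripts stood at 11.1 to 29.5% of their mean in colony 1, with 31 counts of Transcript_39978 and 24 of Transcript_72326 as the highest. Transcript_1754, the most abundant of that list, had 2 counts. All 13 had counts in both sequencing lanes. The colony 3 transcripts in it had a median of 45% of their mean in colony 3, with a range of 6.89 to 122%.

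The week 4.5, pH 7.9 library of colony 4 showed another pattern. It had 14 of the 18 colony 1 transcripts at 3 to 49 counts, summing to 8.33 CPM or 7.83% of the mean in colony 1 at pH 7.6. Their median was 6.34% of that mean, with quartiles of 3.86 and 12.6%, and the highest, at 26.3%, was not the most abundant transcript. It had 49 counts of Transcript_1754, 11 of Transcript_46714, 10 of Transcript_39978 and 16 of Transcript_72326.

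**Figure D4:**
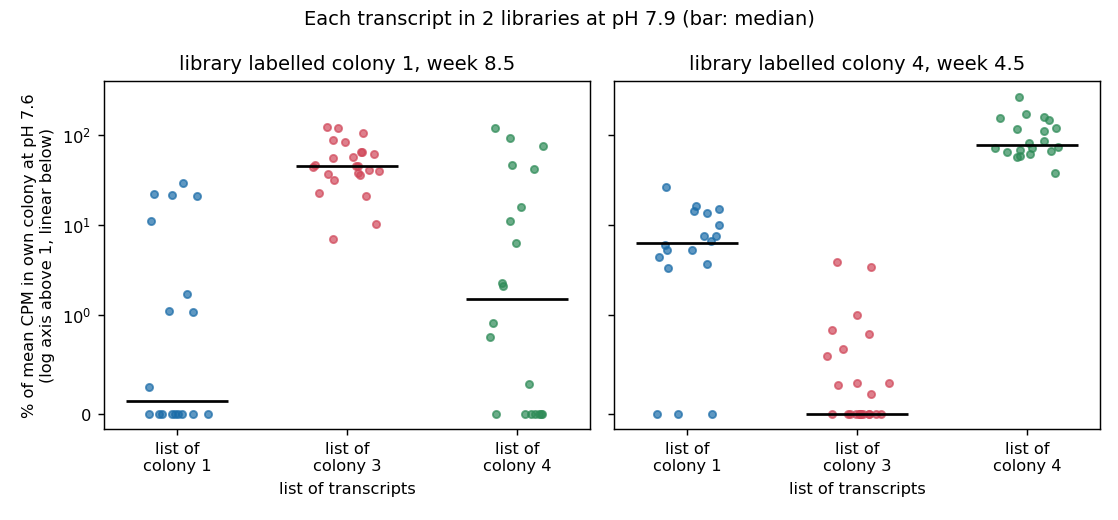
Level of each transcript as a percentage of its mean CPM in its own colony at pH 7.6 (y axis, logarithmic above 1 and linear below), by list (x axis), in 2 libraries at pH 7.9; bars are medians. In the library labelled colony 1 at week 8.5 the colony 4 list spreads from 0 to 120%, while in the library labelled colony 4 at week 4.5 the colony 1 list has a median of 6.34%.

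Low counts of a list were present in further libraries at pH 7.9, in 1 case in a library of the list's own label. Of the colony 3 list, 12 of 24 had 3 to 49 counts in the week 2 library of colony 4 and 12 in the week 4.5 library labelled colony 3, with sums of 1.38% and 1.86% of the mean in colony 3 at pH 7.6. The highest count was 13, of Transcript_57389, in the library of colony 4 and 17, of Transcript_64870, in that labelled colony 3. Transcript_9003 had 7 and 5 counts in these libraries. Of the colony 4 list, 10 of 20 had 3 to 10 counts in the week 4.5 library labelled colony 1, summing to 2.93%. At pH 7.6 every sum of a list in the libraries of another colony was 0.028 to 0.754%. The choice of at most 2 counts fixed this, so the 2 pH levels cannot be compared in it.

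The pH levels were compared within a colony as ratios of CPM + 0.5 between its libraries of equal week. The values at pH 7.6 chose the transcripts, so these ratios are a description. In colony 4 the median log2 ratio of pH 7.6 over pH 7.9 was -0.31 at week 2, 0.11 at week 4.5 and -0.05 at week 8.5, where the 28920 transcripts with 50 or more counts in colony 4 at pH 7.6 had -0.03, 0.05 and 0.03. Of the 20, 3 were higher at pH 7.6 in all 3 weeks and 5 were lower. The share over all transcripts was not computed for these counts, so they are not read as a trait of the list. Over the weeks, 0 of the 20 had a mean ratio beyond 2-fold, against 3.53% of the 28920.

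Transcript_2649 counted 156, 131 and 102 in colony 4 under pH 7.6 and 84, 43 and 76 under pH 7.9, a mean log2 ratio of 0.68. Transcript_48192 counted 82, 73 and 80 under pH 7.6 and 55, 51 and 47 under pH 7.9, a mean log2 ratio of 0.35. Both stood higher at pH 7.6 at every week. Transcript_52580 counted 75, 148 and 171 under pH 7.6 and 176, 305 and 190 under pH 7.9, a mean log2 ratio of -0.94. Transcript_8751 counted 52, 58 and 71 under pH 7.6 and 102, 83 and 73 under pH 7.9, a mean log2 ratio of -0.62. These last were lower at pH 7.6 at every week. All 4 were picked for the size of this ratio among members with 1 sign at all weeks. Their shared direction over the weeks was thus fixed by the choice.

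**Figure D5:**
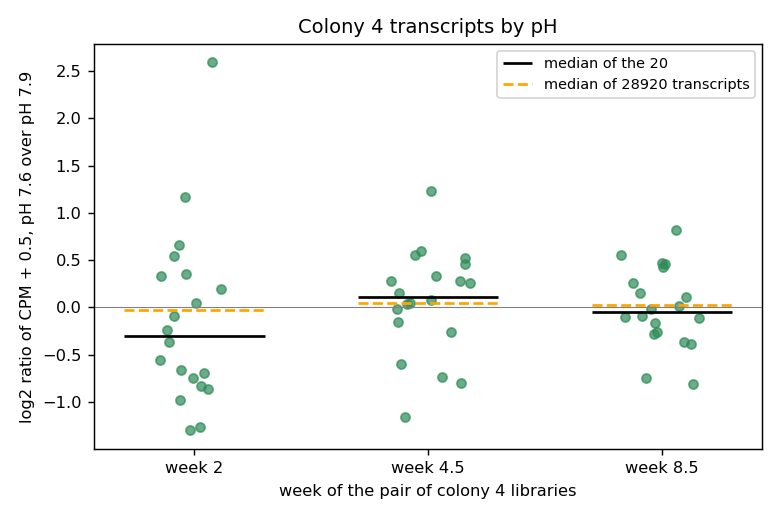
Log2 ratio of CPM + 0.5 at pH 7.6 over pH 7.9 (y axis) for the 20 colony 4 transcripts at each week (x axis), 1 point per transcript, with the median of the 20 and of the 28920 transcripts of like minimum count. The points lie on both sides of 0 at each week, with medians of -0.31, 0.11 and -0.05.

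In colony 1 at week 2, where both libraries held the list, the median log2 ratio was 0.05, with 10 of 18 higher and 8 lower at pH 7.6 and none beyond 2-fold. At weeks 4.5 and 8.5 the 18 were all higher at pH 7.6, with medians of 3.13 and 2.94, against 54.3% and 58% of the 28352. In colony 3 the 24 were all higher at pH 7.6 at each week, with medians of 4.25, 3.18 and 3.48. Of the 25996 such transcripts of colony 3, 54.3%, 48.9% and 53.5% were higher. The pairs of colony 1 at weeks 4.5 and 8.5 and all pairs of colony 3 set a library that held the list against 1 that did not. In them, pH and the library cannot be told apart.

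Across weeks at pH 7.6 the highest over the lowest level (CPM + 0.5) had a median of 1.39 for the colony 1 list, 2.05 for the colony 3 list and 1.43 for the colony 4 list. All transcripts with 50 or more counts in the same libraries had 1.39, 1.85 and 1.45. More than 4-fold was found for 0, 4 and 0 members, against 1.35%, 5.77% and 2.29% of those transcripts. The widest, singled out after its values were seen, was a colony 3 transcript with 1503, 169 and 122 counts at weeks 2, 4.5 and 8.5, a 14.2-fold range. Of the 24 in that list, 14 were highest at week 2. In colony 4, 8 of 20 had their highest week at both pH levels in common. Neither count was set beside the share over all transcripts, so neither is read as a trait of the lists. With 1 library per week, no week was tested.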

How the data were processed

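Polyp RNA was read from 1 end of each fragment (Illumina HiSeq), per the labels' protocols. The file holds raw counts per transcript as the authors deposited them, in 36 columns, 2 lanes for each of 18 libraries. The submitters' processing notes list DESeq2, Trimmomatic 0.36, cutadapt 1.15 and FastQC. Which aligner, counting program and transcripts served is not given in the sources used here, and reads shared by near-identical transcripts or alleles may have been split or dropped. The time points 1 to 3 of the labels were matched to weeks 2, 4.5 and 8.5 in the order of the design text.

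Lanes were summed. The limit of 300 members did not apply. Tests were edgeR 4.0.16 quasi-likelihood F tests (R 4.3.3) on the 9 libraries at pH 7.9, with a mean per colony, TMM scaling, filterByExpr (minimum count 10, minimum total 15) and Benjamini-Hochberg adjustment over all transcripts; a call is an adjusted p below 0.05. Alternatives used DESeq2 1.42.0 and limma 3.58.1. The edgeR procedure was also run on simulated counts in which every library was true to its label. That run does not cover libraries that go against their labels. CPM used TMM factors of 18 libraries, 0.827 to 1.18. The time point pairs libraries across colonies by the labels, as a shared sampling time, and it served as the replicate block in an alternative. No column was left unused.

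Members and lists were chosen with earlier results of these data known. Named transcripts were, by rule, the 2 most abundant of each list, the 2 highest and 2 lowest mean pH ratios of colony 4 among its other members with 1 sign at all weeks, and the 2 of each list with most counts over the pH 7.9 libraries where its median member had 2 or fewer.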

Additional observations from a re-analysis of the deposited data

Results flagged for a closer look

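In the 6 libraries at pH 7.9 that do not carry the label of colony 4, the summed level of the 20 colony 4 transcripts was 102 CPM in the week 2 library labelled colony 3, far from the next value of 17.3 CPM. The gap to the next library was 0.833 of the whole range, above Dixon's critical value for 6 samples. The same library stood apart for Transcript_3360 at 11.4 CPM, Transcript_39136 at 10.02 CPM, Transcript_2649 at 3.98 CPM, Transcript_48192 at 2.16 CPM and Transcript_52580 at 9.41 CPM. Among the 6 libraries at pH 7.9 of labels 1 and 4, the week 4.5 library labelled colony 1 stood apart for Transcript_64870 at 39.3 CPM. Of the 19 sets of values looked at, 7 were flagged. Chance flags about 1 in 20 sets only where the sets are independent and their values normally distributed. These sets are not independent: 6 of the 7 are 1 library, in the sum of a list and in 5 of its members. Many of the other values in them lie near the floor, so the 7 flags cannot be set against that rate.

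By label, the summed level differed between the pH levels in opposite directions. The colony 1 list was higher at pH 7.6 at all 3 weeks under label 1, by a mean of 71.1 CPM, and lower at all 3 weeks under label 3, with a mean difference of -75.9 CPM, and under label 4, with -3.21 CPM. The colony 3 list was higher at pH 7.6 under label 3 by a mean of 299 CPM and lower under label 4, with -1.78 CPM. These differences were not tested, and the pH 7.6 values in them chose the transcripts.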

How the results depend on the processing

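At pH 7.9, the 0 calls among the colony 1 and colony 3 lists held with week as a replicate block (0 and 0), the size factors of DESeq2, DESeq2, limma-voom, no filter, all 18 libraries, each single library left out, and stricter or looser rules. Those of colony 3 stay a description, with no weight as a test, and so do the counts of colony 4. For colony 4 the count was 0 with the replicate block, 1 with DESeq2 and 0 to 18 with single libraries left out. Without the 5 libraries it was 20 for colony 4 and 16 for colony 1, both with the libraries left out for their values. Over all transcripts, calls higher in colonies 1, 3 and 4 numbered 2146, 12 and 583 with DESeq2, 1058 for colony 1 with 18 libraries, and 0 to 1112, 0 to 6 and 0 to 3155 with 1 library left out; 1112 for colony 1 came without the week 2 library of that label, while 3155 for colony 4, 216 for colony 1 and 6 for colony 3 came without the week 2 library labelled colony 3, and 4 for colony 4 and 6 for colony 3 without that labelled colony 1. The replicate block turned Transcript_1754 to -0.43 on the log2 scale. With limma-voom it was -2.06 and Transcript_46714 -1.69. With single libraries left out they ran from -6.6 to 1.69 and from -7.66 to 1.8.

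The size of the lists of colonies 1, 3 and 4 depended on the limits: 4, 9 and 7 with 100 or more counts, 7, 2 and 3 with 0 counts elsewhere, and 93, 96 and 111 with 20 or more and 5 or fewer, where the limit of 300 applied. With counts scaled to the mean library total, the lists of colonies 1, 3 and 4 held 12, 18 and 11. Single lanes were read with 25 or more and 1 or fewer counts. The lists then held 17, 23 and 30 with lane 1 alone, and 15, 26 and 6 with lane 2 alone. The cause of these differences was not tested. The median log2 pH ratio of colony 4 ran from -0.1 to 0.19 with a week left out. Counts of 0 to 2 lie within the limit that a count of 0 allows, so absence of a transcript was not shown.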
